A study of Mus musculus with 4 samples.

Results

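Immediate early and heat shock genes were examined as 36 rows, chosen by gene symbol from a given list, of the 32286 features counted by single-cell RNA sequencing of cerebral vascular fragments. The list held 24 immediate early genes, which encode induced transcription factors, immediate early response proteins and feedback or survival proteins, and 12 heat shock genes, which encode chaperones. Rows were picked by symbol, but the list itself was chosen with earlier results of these data known. All 36 genes were found and passed the filter on low counts in each genotype comparison. Together they held 1.816% of the 140111604 UMIs (unique molecular identifiers, 1 per captured transcript molecule) of the kept cells, of which 1.277% fell to immediate early and 0.5395% to heat shock genes.

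Immediate early genes are transcribed within minutes of a stimulus from preassembled factors, without new protein synthesis, and many of their messages are short-lived. Heat shock genes such as *Hspa1a* are switched on by heat shock factor 1 when unfolded proteins accumulate, whereas other chaperones, such as *Hspa8* and *Hsp90ab1*, are made at all times. Both groups are known to be induced when tissue is warmed, cut and digested with enzymes, and in brain vessels several of them also respond to blood flow and to inflammatory signals, so that their level in isolated cells can hold a part made in the animal and a part made on the bench.

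The study asked how the loss of angiopoietin-2 changes brain vessels, and single cells from 2 *Angpt2*-WT and 2 *Angpt2*-KO mice of 3 months were compared, with 1 library for each mouse. The KO mice carried a constitutive deletion in every cell (a floxed *Angpt2* allele recombined with *Pgk*-Cre, in mice backcrossed to C57BL6/J), and the WT mice were littermates of heterozygous breedings. Mice numbered 1 were female and those numbered 2 were male, in both genotypes, so sex could not be told apart from the replicate number. The study describes 2 independent experiments, and the labels do not say whether the number marks them. Cerebra were digested with collagenase, fragments were enriched with PECAM1 beads, and samples were kept cold between the steps of dissociation. No undigested tissue and no transcription inhibitor was part of these samples, so the share of each level that arose during isolation was not measured. Levels are given as CPM, the UMIs of a gene per 1000000 UMIs of a cell group in a mouse. *Angpt2* itself was read at 10.7 and 9.92 CPM in WT and 65.4 and 41.0 in KO endothelial cells (ECs), but tags of the transcript's 3′ end lie outside the deleted part and did not check the genotype.

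The named zones (arterial-like, capillary-like, venous-like and angiogenic-like) make up the ECs below, and fenestrated endothelial-like cells were a group of their own. Of 19809 barcodes, the 17999 with over 500 genes and under 10% mitochondrial UMIs were kept, with 31753395 to 42903731 UMIs per mouse, and 33 barcode sequences occurred in more than 1 library. Cells were clustered without the 36 genes and without related stress genes, so that none of them entered the grouping directly, and groups were named from listed markers. The 14161 ECs numbered 3225 (WT1), 4697 (WT2), 2090 (KO1) and 4149 (KO2), with median UMIs per cell of 5421, 4511, 7512 and 3886 and median mitochondrial shares of 3.711%, 3.684%, 2.503% and 2.977%, in that order. The 7 endothelial markers summed to 11609 to 12652 CPM in ECs. They also reached 7366 to 7846 in pericyte-like and 4358 to 6582 in smooth muscle-like cells, with all 7 markers found in every mouse, so these mural groups held endothelial RNA. The erythrocyte-like group held endothelial markers at 10246 to 10936 beside its haemoglobin, and its values were not read as those of erythrocytes. Choroid plexus markers, which ECs should lack, were at 597 to 689 in WT and 60.9 to 265 CPM in KO ECs.

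Promoter sequences show which known response elements accompany the 2 groups of genes. Reference promoters (RefSeq, GRCm38.p6, 250 bases before to 50 bases after a transcript start) matched 30 of the 36 genes, and *Ier2*, *Egr1*, *Hsp90ab1*, *Cebpd*, *Hspa8* and *Hsp90aa1* had no entry. The windows below were chosen because they hold the element typical of their group, and capitals mark the element. Genes coding for the 2 nearly identical inducible HSP70 proteins lie next to each other on chromosome 17, and their windows at chr17:34972227-34972286 and chr17:34959309-34959368 (both on the minus strand) were the same, with a heat shock element. In chr1:55088038-55088097 (plus strand), between *Hspe1* and its neighbour *Hspd1*, which run in opposite directions from this promoter, 3 heat shock elements overlapped.
Hspa1a: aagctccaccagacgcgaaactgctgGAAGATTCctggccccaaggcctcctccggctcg
Hspa1b: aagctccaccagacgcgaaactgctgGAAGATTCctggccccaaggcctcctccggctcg
Hspe1: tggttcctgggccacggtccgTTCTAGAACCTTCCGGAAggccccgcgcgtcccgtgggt

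A cAMP response element, the binding site of CREB and ATF factors, stood in the promoters of 3 immediate early genes. These were *Dusp1* (chr17:26508582-26508641), *Btg2* (chr1:134079288-134079347) and *Ppp1r15a* (chr7:45526247-45526306), all on the minus strand. A serum response CArG box, the site of serum response factor, stood in that of *Zfp36* (chr7:28379252-28379311, minus strand), and an ER stress response element in that of *Hspa5* (chr2:34772004-34772063, plus strand).
Dusp1: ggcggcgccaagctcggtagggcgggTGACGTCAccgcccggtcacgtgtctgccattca
Btg2: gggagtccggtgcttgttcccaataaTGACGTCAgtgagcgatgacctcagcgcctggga
Ppp1r15a: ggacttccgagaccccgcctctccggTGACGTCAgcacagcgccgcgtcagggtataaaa
Zfp36: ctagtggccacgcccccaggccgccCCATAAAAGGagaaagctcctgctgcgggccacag
Hspa5: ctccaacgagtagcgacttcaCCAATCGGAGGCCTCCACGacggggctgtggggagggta

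Both strands were searched. The heat shock element (GAANNTTC or TTCNNGAA, which can overlap each other) was found in 7 of 9 heat shock and 1 of 21 immediate early genes with a promoter (*Jun*), against 15.1% of all 32851 promoters. The 7 were not independent, since *Hspe1* and *Hspd1* share the same matches and the promoters of *Hspa1a* and *Hspa1b* are nearly identical. A gene counted with a match in any of its promoters, whereas the shares are of single promoters. The cAMP response element (TGACGTCA) was found in 3 of 21 immediate early and 0 of 9 heat shock genes against 1.79% of promoters. The CArG box was found in 1 of 21 immediate early genes against 1.63% of promoters, and the ER stress response element (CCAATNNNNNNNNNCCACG) in *Hspa5* against 0.119%. The AP-1 site (TGANTCA), to which products of *Fos* and *Jun* bind, was in none of the 21 immediate early promoters and in that of *Hspa5*, against 7.81% of all promoters. These matches describe letters within a window of 300 bases and say nothing of what was bound. The promoters of *Hspa1a* and *Hspa1b* were identical at 296 of 300 bases, and 49.3% and 52.3% of their transcripts' windows of 90 bases were shared, but none in the last 500 bases, where 3′ reads fall (GENCODE, GRCm38), so that most of their UMIs can be assigned to 1 of the pair.

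Levels count 3′ tags and were not divided by transcript length. Immediate early genes were highest in microglia-like cells, the brain's resident macrophages, where their summed level was 26780 (WT1), 22495 (WT2), 29312 (KO1) and 29077 (KO2) CPM, a mean of 26916 ± 3161 (SD, n = 4 mice). The lowest of these mice was above the highest mouse of the next group (21004, smooth muscle-like cells of KO2). Smooth muscle-like cells followed with 18987 ± 2460 and venous-like ECs with 18405 ± 1835, and these groups overlapped. Fenestrated endothelial-like cells had 13648 ± 342, arterial-like ECs 12939 ± 1553 and B cell-like cells 12160 ± 209, and capillary-like ECs, pericyte-like cells, T or NK cell-like cells and angiogenic-like ECs lay between 9567 and 10672 on average. From fenestrated endothelial-like cells downward, neighbouring groups overlapped in their mice.

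**Figure D1:**
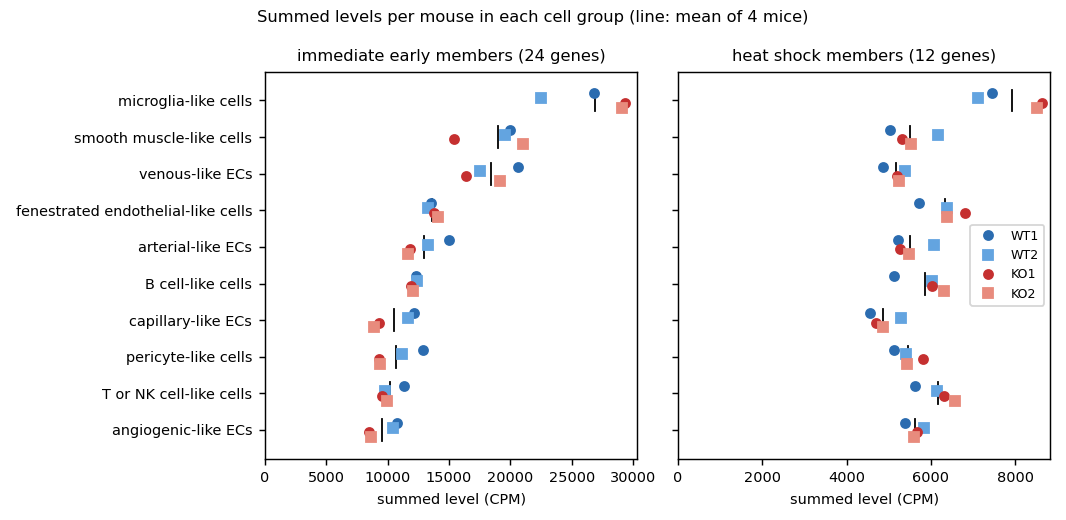
Summed level in CPM (horizontal axis) of the 24 immediate early (left) and 12 heat shock genes (right) in each cell group, with 1 point per mouse and a line at the mean of 4 mice. Microglia-like cells had the highest sums of both groups, and in capillary-like and arterial-like ECs both KO mice lay below both WT mice for immediate early genes.

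Heat shock genes varied less between cell groups. Their summed level was 7454, 7115, 8630 and 8506 in microglia-like cells (WT1, WT2, KO1, KO2), a mean of 7926 ± 756 (SD, n = 4), against 5171 ± 290 CPM in all ECs. In venous-like ECs, which had the most immediate early RNA of the zones, the heat shock sum was 5167 ± 221 and no higher than the 5514 ± 391 of arterial-like ECs. The 10 listed cytokine and activation genes that microglia are known to induce on handling, such as *Ccl3* and *Il1b*, summed to 3268, 2518, 3439 and 3507 CPM in microglia-like cells and to 28.6 to 36.7 in ECs.

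Among the role groups in ECs, AP-1 transcription factors, which pair up to bind DNA, made up the largest sum, with 5383 ± 1289 CPM (SD, n = 4). *Jun* (2338, 2294, 1633 and 1685 in WT1, WT2, KO1 and KO2) and *Jund* (1477, 1649, 1040 and 1020) were its most abundant genes, and both KO mice lay below both WT mice for each. *Egr1* (685, 431, 376 and 445), a zinc finger factor, and *Klf6* (488, 526, 496 and 503) led the other induced factors, with overlapping genotypes. Of the immediate early response genes, *Btg2* (918, 879, 575 and 706), which restrains proliferation, and *Ier2* (583, 607, 379 and 366) were highest, and of the feedback and survival genes *Dusp1* (938, 956, 707 and 832), a phosphatase of MAP kinases, and *Nfkbia* (842, 1027, 697 and 736), the inhibitor of NF-κB. In all 4 of these the KO values lay below the WT values, which held for 23.6% of all genes tested in ECs.

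Among chaperones in ECs, the constitutive *Hsp90ab1* (1445, 1667, 1677 and 1683) and *Hspa8* (751, 860, 992 and 839) were the most abundant with *Hspb1* (737, 1006, 881 and 912), a small chaperone, and *Dnaja1* (460, 500, 467 and 452), a co-chaperone of HSP70. Of the chaperones of the ER and mitochondria, *Hspa5* was at 254, 233, 318 and 307 and *Hspd1*, the mitochondrial HSP60, at 85.5, 90.4, 102 and 100 CPM. *Hsp90ab1*, *Hspa5* and *Hspd1* had both KO values above both WT values without passing the test given below, and the others overlapped. Of all genes tested in ECs, 27.1% had both KO values above both WT values. Within ECs, cells differed far more than mice did. The share of a cell's UMIs in immediate early genes had medians of 0.781% and 0.697% in the WT and 0.521% and 0.571% in the KO mice, while the 90th percentile was 2.37%, 2.18%, 1.71% and 1.8% and the 10th percentile 0.212%, 0.234%, 0.221% and 0.221%. The genotypes thus lay apart at the median and the upper end and not at the lower end.

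A capillary-like cluster of 3608 cells, led by *Gm26917*, *Lars2* and *Gm42418*, held little RNA of these genes. Its immediate early sum was 3949 (WT1), 4339 (WT2), 4136 (KO1) and 4548 (KO2) CPM, with overlapping genotypes. The other capillary-like clusters had 15499, 13829, 11625 and 11768, and 10675, 10212, 9270 and 8927. In the low cluster *Fos* was at 72.9 to 125 and *Hspa1a* at 17.0 to 26.4 CPM, against 641 to 1034 and 185 to 392 in all ECs. Its median UMIs per cell were 3806, 2616, 4069 and 2625, below those of the cluster with the highest sum (9376, 7577, 10582 and 6202) and closer to those of the remaining cluster (3995, 3529, 4791 and 3146), whose sum was the second one given. The part of depth in these differences was not tested.

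Among zones, venous-like and arterial-like ECs were compared within each mouse (edgeR's quasi-likelihood test with mouse as a term and Benjamini-Hochberg adjustment, with shares counted over the 9883 genes tested that took no part in the clustering). Of the 36 genes, 17 were higher in venous-like cells, where 13.1% of all genes tested were higher, and 4 were lower, where 14.6% were. *Ier3*, a short-lived survival regulator induced by NF-κB, was at 1291, 1150, 849 and 880 CPM in venous-like cells (WT1, WT2, KO1, KO2) and at 245, 209, 150 and 142 in arterial-like cells. Its difference was 2.47 ± 0.07 on the log2 scale (SE, adjusted p = 2.1e-13 by edgeR), with no overlap. Each gene's spread was moderated with that of all genes tested, so p-values this small do not rest on 4 mice alone. *Socs3*, a feedback inhibitor of cytokine signals through STAT3, was at 221, 146, 156 and 187 against 48.4, 35.4, 35.6 and 44.1, a log2 difference of 2.10 ± 0.08 (adjusted p = 1.1e-11).

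The factors of the C/EBP family moved the same way, since *Cebpb* was higher in venous-like cells by 1.68 ± 0.12 and *Cebpd* by 1.59 ± 0.17 on the log2 scale. *Zfp36*, which destabilizes cytokine messages, was higher by 1.26 ± 0.07, *Nfkbia* by 0.86 ± 0.06 and *Junb* by 0.78 ± 0.07. The other higher genes, from *Gadd45g* (0.75) to *Fos* (0.28), differed less, and *Fos* turned to −0.04 when the stress genes took part in the clustering. *Hspb1* went the other way, with 487, 726, 594 and 513 in venous-like and 940, 1314, 928 and 934 in arterial-like cells, a log2 difference of −0.85 ± 0.07, and *Nr4a1*, a nuclear receptor (−0.57), *Hsp90aa1* (−0.42) and *Mcl1*, an inhibitor of apoptosis (−0.24), were also lower. DESeq2 called 20 of the 36 genes. Median UMIs per venous-like cell were 18375.5, 17389.5, 16295.5 and 5079.5, and KO2 stood apart in this, against 7486, 5495, 8166 and 5143.5 per arterial-like cell, so that venous-like cells were deeper in the other 3 mice. Pericyte markers also moved with the zone (8 of 8 had UMIs in every mouse in venous-like and 6 of 8 in arterial-like ECs), with 469, 299, 398 and 832 CPM in venous-like and 99.9, 85.9, 47.3 and 72.5 in arterial-like ECs. After reduction to 2000 UMIs per cell 18 genes were called (15 higher, 3 lower). The part of pericyte RNA in these differences was not tested.

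Between genotypes, 7 immediate early genes and 2 heat shock genes passed the test in all ECs (edgeR's quasi-likelihood test on UMIs summed per mouse, 2 mice per genotype, adjusted p under 0.05 over 13526 genes). Of the 36, 8 were lower in KO, where 2.14% of all genes tested were lower, and 1 was higher, where 3.83% were. DESeq2 called 15 (14 lower, 1 higher), among 983 over all genes, against 808 by edgeR. The p-values rest on the spread between 2 mice of a genotype, which edgeR moderates with that of all genes tested. The sums cannot tell fewer transcribing cells from less RNA per cell. The comparisons by cell group that follow use the same 4 mice and, for ECs and their zones, the same cells. Among AP-1 factors, *Junb* fell from 1184 and 1044 CPM in WT to 568 and 653 in KO ECs, a change by −0.89 ± 0.16 on the log2 scale (SE, adjusted p = 0.0173). *Fosb* (558, 321, 168 and 267 in WT1, WT2, KO1 and KO2) had a log2 fold change of −1.04 ± 0.29 (adjusted p = 0.0859), *Fos* (1034, 898, 702 and 641) of −0.54 ± 0.16 (adjusted p = 0.0902), and neither passed. *Jund* (−0.62, adjusted p = 0.0528) and *Jun* (−0.50, adjusted p = 0.122) did not pass either, and all 4 had no overlap between genotypes.

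*Ier3* changed most, from 496 and 543 in WT to 191 and 228 in KO (log2 fold change −1.33 ± 0.15, adjusted p = 0.00259 by edgeR). *Gadd45g*, a growth arrest and stress sensor gene, fell from 116 and 134 to 54.8 and 70.8 (−1.01 ± 0.14, adjusted p = 0.00576). *Cebpb*, at low level, fell from 23.9 and 32.8 to 10.4 and 15.2 (−1.17 ± 0.20, adjusted p = 0.0144). Its relative *Cebpd* went the other way, from 165 and 194 to 348 and 319 (0.87 ± 0.13, adjusted p = 0.0070), and was the only one of the 36 called higher in this comparison. *Zfp36* fell from 529 and 440 to 278 and 282 (−0.81 ± 0.15, adjusted p = 0.0173) and *Ier2* from 583 and 607 to 379 and 366 (−0.70 ± 0.13, adjusted p = 0.0194).

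**Figure D2:**
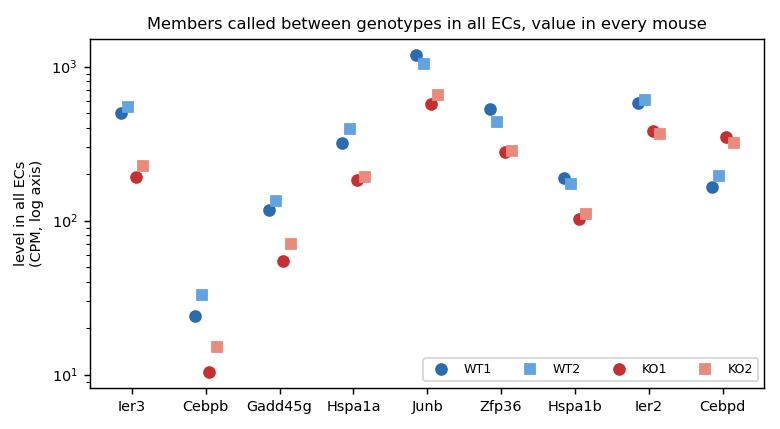
Level in CPM on a log axis (vertical) of the 9 genes called between genotypes in all ECs, with 1 point per mouse. Both KO mice lie below both WT mice for 8 genes, with *Ier3* the most (496 and 543 in WT, 191 and 228 in KO), and above them for *Cebpd*.

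Of the chaperones, only the inducible HSP70 pair passed. *Hspa1a* fell from 318 and 392 CPM in WT to 185 and 191 in KO ECs (−0.94 ± 0.13, adjusted p = 0.00657 by edgeR) and *Hspa1b* from 189 and 172 to 102 and 111 (−0.78 ± 0.11, adjusted p = 0.00624). The other 10 heat shock genes had log2 fold changes of −0.25 (*Dnajb1*, which passes clients to HSP70) to 0.46 (*Hsph1*, its exchange factor, adjusted p = 0.0865), and the heat shock sum overlapped between genotypes (4763, 5438, 5289 and 5193). Over the immediate early genes the median log2 fold change was −0.438, against −0.018 over all genes tested, and 17 of 24 had both KO values below both WT values, against 23.6% of all genes. Over the heat shock genes the median was 0.060, with 3 of 12 below and 5 of 12 above, against 27.1% of all genes above.

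These calls differ in how far single mice carry them. Leaving out a mouse gave between 7 called genes (without KO1) and 11 (without WT1). *Cebpb* was no longer called without WT2 (log2 fold change −0.95), *Ier2* without KO1 (−0.72) or KO2 (−0.64), *Junb* without KO1 (−0.78) and *Zfp36* without KO2 (−0.79). *Ier3*, *Gadd45g*, *Cebpd*, *Hspa1a* and *Hspa1b* were called without each of the 4 mice.

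**Figure D3:**
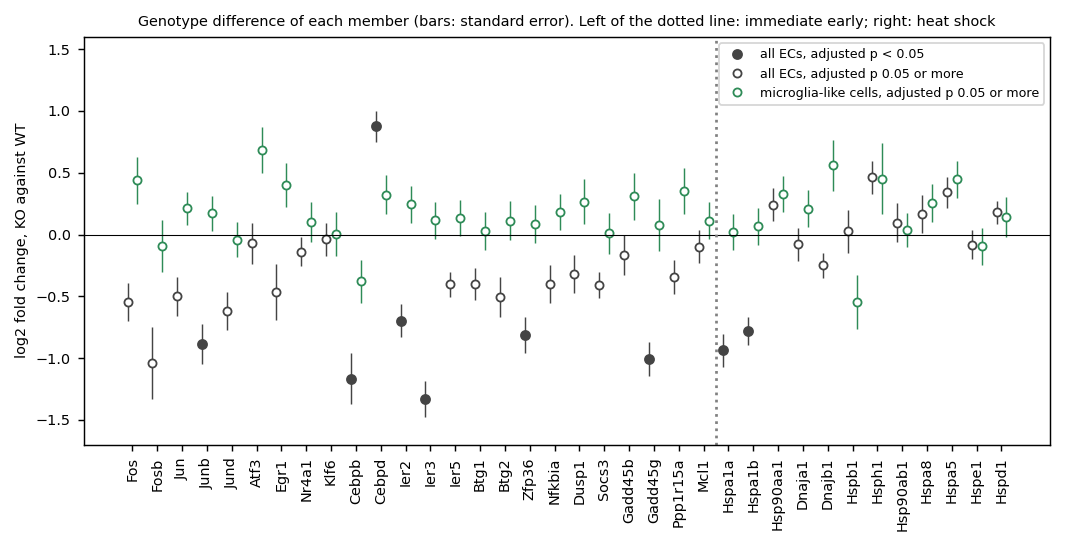
Log2 fold change of KO against WT (vertical axis, bars are standard errors) of each of the 36 genes in all ECs and in microglia-like cells, with filled points for an adjusted p under 0.05. In all ECs 23 of 24 immediate early genes lie below 0 and *Cebpd* above, against 7179 of 13526 genes tested below 0. In microglia-like cells no gene was called.

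KO ECs held 880 and 899 cells of an angiogenic-like cluster that counted 64 and 44 cells in WT, so the comparison was repeated outside it. There 3 of the 36 genes were lower in KO (0.479% of all genes) and 0 were higher (0.858% of all genes), with 18 lower and 3 higher at an unadjusted p under 0.05, and DESeq2 called 13 (12 lower, 1 higher). Over all genes DESeq2 called 354 there, against 176 by edgeR. *Ier3* was at 505 and 548 in WT and 303 and 282 in KO (−0.87 ± 0.12, adjusted p = 0.0201 by edgeR), *Gadd45g* at 119 and 135 and at 68.4 and 83.9 (−0.75 ± 0.12, adjusted p = 0.0257), and *Cebpb* at 24.4 and 33.2 and at 13.7 and 17.4 (−0.90 ± 0.17, adjusted p = 0.0493). The immediate early sum did not overlap between genotypes here either, with 13846 and 13234 in WT and 10422 and 10420 in KO, and 19 of 24 genes had both KO values below both WT values (17.5% of all genes). Each fit without 1 mouse left a single mouse in a genotype, and the number of calls over all genes changed with the mouse left out. Of the 3 named genes, *Cebpb* was not called without WT2 (log2 fold change −0.69), *Gadd45g* without KO1 (−0.62) and *Ier3* without KO2 (−0.81), and *Cebpb* neither after reduction to 2000 UMIs per cell nor under 5% mitochondrial UMIs. All 3 were called by DESeq2. *Junb*, *Zfp36*, *Ier2*, *Hspa1a*, *Hspa1b* and *Cebpd*, which edgeR called in all ECs, were not called by edgeR outside the cluster.

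In capillary-like ECs, which exchange nutrients with the brain and were the most numerous, 8 of the 36 genes were lower in KO (0.897% of all genes) and *Cebpd* was higher (1.62% of all genes). *Junb* was at 1061 and 859 in WT and 604 and 570 in KO (−0.74 ± 0.15, adjusted p = 0.0217 by edgeR), and *Atf3*, a stress-induced partner of AP-1, at 84.6 and 77.3 against 54.3 and 47.2 (−0.70 ± 0.11, adjusted p = 0.0069). *Ier3* was at 449 and 409 against 265 and 227 (−0.83 ± 0.13, adjusted p = 0.00507). None of these overlapped between genotypes.
*Ier2* (529 and 563 against 371 and 331, −0.66), *Ier5* (178 and 180 against 142 and 134, −0.40) and *Gadd45g* (65.1 and 59.8 against 35.8 and 47.4, −0.60) also fell, as did *Hspa1a* (281 and 339 against 224 and 201, −0.57) and *Hspa1b* (175 and 155 against 121 and 116, −0.51). *Cebpd* rose from 153 and 144 to 246 and 263 (0.75 ± 0.11, adjusted p = 0.00361). *Junb*, *Ier2*, *Ier5*, *Hspa1a* and *Hspa1b* were called neither without KO1 nor without KO2. Their log2 fold changes, in that order, were −0.76, −0.73, −0.42, −0.63 and −0.52 without KO1. Without KO2 they were −0.70, −0.58, −0.36, −0.49 and −0.48. *Gadd45g* was not called without WT1 (−0.50) or KO1 (−0.41), and *Ier3* not without KO2 (−0.72). *Ier5*, *Gadd45g*, *Hspa1a* and *Hspa1b* were not called under 5% mitochondrial UMIs. They were not called either without the capillary-like cluster low in stress genes, where 5 genes were called. After reduction to 2000 UMIs per cell *Atf3* (log2 fold change −0.48), *Gadd45g* (−0.37) and *Ier5* (−0.30) were not called.

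In arterial-like ECs 3 genes were lower in KO (0.349% of all genes) and *Cebpd* was higher (0.598% of all genes). *Cebpd* rose from 84.4 and 90.4 to 202 and 179 CPM (1.08 ± 0.13, adjusted p = 3.1e-05 by edgeR). *Ier3* fell from 245 and 209 to 150 and 142 (−0.68 ± 0.14, adjusted p = 0.0126), *Gadd45g* from 182 and 190 to 113 and 138 (−0.60 ± 0.13, adjusted p = 0.0295) and *Fosb* from 555 and 345 to 230 and 306 (−0.79 ± 0.19, adjusted p = 0.0434). DESeq2 called 5 genes, of which 2 were among these 4, and gave *Gadd45g* an adjusted p of 0.0682 and *Fosb* one of 1.00. No gene was called without WT1 or without WT2, 1 was called without KO1 and 3 without KO2, and 1 of the 4 remained after reduction to 2000 UMIs per cell or with stress genes in the clustering (*Cebpd* in both).
In venous-like ECs, with 46 cells in KO1, *Cebpb* was lower (71.4 and 75.5 against 33.7 and 45.4, −0.96 ± 0.21, adjusted p = 0.0428), where 0.203% of all genes were lower, and 0 of the 36 were higher (0 also at an unadjusted p under 0.05), where 0.445% were. DESeq2 gave *Cebpb* no adjusted p. By edgeR *Cebpb* was not called without WT2 (log2 fold change −0.90) or KO1 (−0.79), under 5% mitochondrial UMIs, without the top doublet scores or with stress genes in the clustering, and its log2 fold change was 0.0047 after reduction to 2000 UMIs per cell. The 4 genes that DESeq2 called there, all lower, were *Jund*, *Ier2*, *Hspa1a* and *Ier3*, among 108 over all genes. The counts by edgeR changed with the mouse left out, as did those over all genes. *Cebpd* was at 390, 399, 366 and 371 in venous-like ECs, and both KO values lay below both WT values. Whether its genotype difference differs between zones was not tested.

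Fenestrated endothelial-like cells (811 cells), which line vessels of the choroid plexus and other sites without a barrier, showed no called gene among the 36 by edgeR, where 0% of all genes were lower and 0% higher, nor by DESeq2, with 1 lower and 0 higher at an unadjusted p under 0.05. Their immediate early sums were 13513 and 13269 in WT and 13739 and 14072 in KO, and *Ier3* was at 323, 308, 276 and 292 (WT1, WT2, KO1, KO2). The median log2 fold change of immediate early genes was −0.012. Choroid plexus markers summed to 551 and 425 in WT and 63.2 and 161 in KO in these cells.

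Microglia-like cells (904 cells) had no called gene among the 36 by edgeR or DESeq2, where 0.188% of all genes were lower and 0.133% higher by edgeR, with 2 lower and 6 higher at an unadjusted p under 0.05. Both KO mice were above both WT mice for 14 of 24 immediate early genes and 8 of 12 heat shock genes, against 23.3% of all genes. They were below for none, against 14.9% of all genes. *Fos* was at 2102 and 1333 in WT and 2417 and 2442 in KO, *Egr1* at 2506 and 1693 and at 2784 and 2995, and *Jun* at 5235 and 4670 and at 6016 and 5914. *Atf3* had the largest log2 fold change, with 515 and 360 against 679 and 790 (0.68 ± 0.18, adjusted p = 0.185 by edgeR). *Hspa1a* (633, 664, 642 and 728) and *Hspa1b* (513, 586, 586 and 608) overlapped. Without WT1, 4 of the 36 genes were called (3 higher, 1 lower) and without each of the other mice none.

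The 2 cell types were compared directly by the genotype by cell type term, with mouse in the fit (edgeR, 14131 genes). Each gene's spread was again moderated with that of all genes tested. The ECs here included the angiogenic-like cluster (880 and 899 cells in KO, 64 and 44 in WT). The comparison was not run outside that cluster, and its part in the differences was not tested. The KO against WT difference was more positive in microglia-like cells than in ECs for 19 of the 36 genes, where 0.807% of all genes passed in this direction, and more negative for 0, where 1.92% did, although *Cebpd* (−0.54) and *Hspb1* (−0.53) were so at an unadjusted p under 0.05. DESeq2 called 11, all more positive, and edgeR 15 without WT1, 8 without WT2, 11 without KO1 and 18 (17 more positive, 1 more negative) without KO2. The largest difference was that of *Ier3* (1.48 ± 0.17 on the log2 scale by edgeR), which was at 337, 328, 361 and 388 in microglia-like cells. *Gadd45g* (1.13), *Junb* (1.09), *Fos* (1.05) and *Hspa1a* (0.98) followed. *Egr1*, *Fosb*, *Hspa1b*, *Ier3*, *Junb* and *Zfp36* passed under each of the 7 alternatives of this comparison. Endothelial markers in microglia-like cells summed to 1804 and 2353 in WT and 887 and 1429 CPM in KO, and their part in these differences was not tested.

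Pericyte-like cells (600 cells), with endothelial RNA as given above, had 7 of the 36 genes lower in KO (1.86% of all genes) and 0 higher (3.39% of all genes), of which 2 passed at an unadjusted p under 0.05, and 6 were called by DESeq2 (5 lower, 1 higher). *Fosb* fell from 616 and 317 to 161 and 258 CPM (−1.19 ± 0.28, adjusted p = 0.0196 by edgeR) and *Jund* from 1737 and 1688 to 1051 and 1038 (−0.74 ± 0.16, adjusted p = 0.0143). *Ier3* fell from 292 and 334 to 143 and 193 (−0.94 ± 0.19, adjusted p = 0.00783) and *Hspa1a* from 457 and 417 to 257 and 231 (−0.87 ± 0.17, adjusted p = 0.00783). *Hspa1b* (237 and 209 against 137 and 127, −0.77), *Cebpb* (98.2 and 95.8 against 50.8 and 66.9, −0.77) and *Zfp36* (373 and 298 against 232 and 197, −0.66) fell too. DESeq2 did not call *Fosb* (adjusted p = 0.568), *Cebpb* (0.305) or *Zfp36* (0.0548). Under 5% mitochondrial UMIs edgeR did not call *Fosb*, *Jund*, *Cebpb*, *Hspa1a* or *Hspa1b* (log2 fold change of *Hspa1b* −0.29). Without KO1, 1 gene was called, and 4, 5 and 4 without WT1, WT2 and KO2. Erythrocyte markers in these cells were at 78.0, 911, 11404 and 691, and KO1 stood apart.
In smooth muscle-like cells (697 cells) none of the 36 genes was called by edgeR or DESeq2, where 0.00975% of all genes were lower and 0% higher, with 4 lower and 0 higher at an unadjusted p under 0.05, and 1 was called without WT2 or without KO2. *Fos*, the most abundant there, was at 3415, 3661, 2777 and 3881.

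Other genes of these responses in ECs moved in both directions. Of 37 other listed immediate early genes 34 were tested and 2 fell and 2 rose, with a median log2 fold change of −0.116. *Klf10* (−0.69) and *Ier5l* (−0.44) fell, while *Ccn1* (193 and 187 in WT, 470 and 315 in KO, 1.03) and *Ccn2* (30.7 and 26.8 in WT, 337 and 166 in KO, 3.11), matricellular genes induced by YAP and TAZ, rose. *Klf2*, a flow-induced factor, was at 2120 and 2602 in WT and 1592 and 1503 in KO (−0.63 ± 0.17, adjusted p = 0.0738 by edgeR) and did not pass. Of 30 other chaperones and co-chaperones 2 fell (*Dnajb9*, −0.45, and *Hspb8*, −0.61) and *Cryab* rose (2.51 and 3.01 against 5.51 and 6.91, 1.15), with a median of 0.071. Of 17 unfolded protein and integrated stress response genes only *Ddit4*, an inhibitor of mTORC1, was called (95.7 and 114 against 58.0 and 65.6, −0.78), and of the 7 microglial cytokine genes tested none. Outside the angiogenic-like cluster no gene of these lists was called lower in KO, and only *Ccn2* and *Cryab* were called higher.

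Across single ECs the genes varied together. Since deeper cells show more of every gene, each cell was reduced at random to 2000 UMIs, which left 3039, 4119, 1976 and 3541 ECs (WT1, WT2, KO1, KO2), and Spearman correlations were computed across the cells of a mouse and averaged over mice. Cells are not replicates and the values are a description. Pairs of immediate early genes had a mean correlation of 0.162 (0.189, 0.167, 0.141 and 0.152 in the mice) and pairs of heat shock genes of 0.060, and a pair with a gene from each group of 0.085. The mean over 6123 genes found in ECs was 0.0012. Without the reduction the values were 0.302, 0.175 and 0.206, against 0.0766 over all genes.

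Of 276 immediate early pairs, 261 were above 0 in every mouse after the reduction and 47 had a mean above 0.3. *Fos* and *Junb* were the closest pair (0.590, from 0.530 to 0.632 in the mice), followed by *Jun* with *Jund* (0.574), *Fos* with *Jun* (0.567) and *Jun* with *Junb* (0.562). *Egr1* was closest to *Fos* (0.503), *Dusp1* to *Jun* (0.445), *Ier2* to *Junb* (0.438), *Zfp36* to *Fos* (0.434) and *Btg2* to *Fos* (0.414). *Cebpb* (0.045), *Gadd45b* (0.067), *Mcl1* (0.069) and *Cebpd* (0.070) had the lowest mean correlations with the other immediate early genes. In that order they held 0.0060%, 0.0050%, 0.0367% and 0.0233% of all UMIs, and the part of low counts was not tested. Of 66 heat shock pairs, 44 were above 0 in every mouse and only *Hspa1a* with *Hspa1b* (0.338) exceeded 0.3.

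*Hspa1a* varied more with immediate early genes (mean 0.202) than with other chaperones (0.114), and its closest gene was *Jun* (0.407). The inducible chaperones had a mean of 0.109 with immediate early genes, and the constitutive, ER and mitochondrial chaperones of 0.051. Single genes overlapped, since the constitutive *Hsp90ab1* (0.111) and *Hspa8* (0.079) lay within the range of the inducible ones. That range went from 0.006 (*Hsph1*) to 0.202 (*Hspa1a*), with *Hspa1b* at 0.159 and *Hsp90aa1* at 0.110. *Hspa5* (0.027) and *Hspe1* (0.037) of the ER and mitochondria were low. *Hsph1* (0.006) and *Hspd1* (0.003) showed almost none. Both were sparse, with 0.0024% and 0.0100% of all UMIs, and the part of low counts in these values was not tested. The summed shares of both groups in a cell correlated with each other at 0.600, 0.530, 0.457 and 0.495. In microglia-like cells the mean was 0.102 within immediate early genes and 0.031 between the groups, and in smooth muscle-like cells 0.155 and 0.011.

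**Figure D4:**
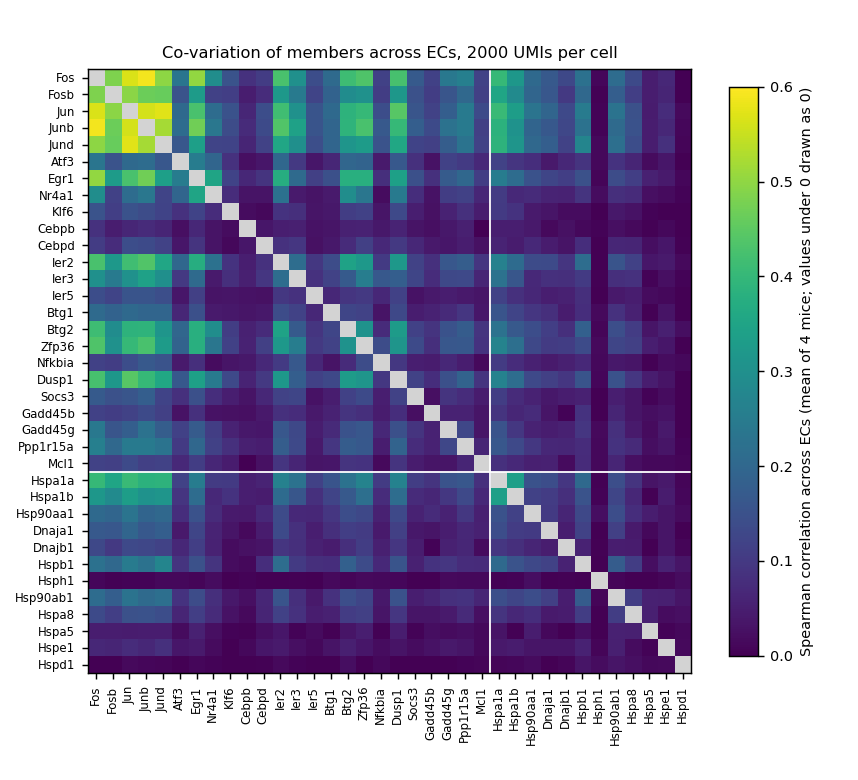
Spearman correlation across ECs, averaged over 4 mice, of each pair of the 36 genes after each cell was reduced to 2000 UMIs (both axes list the genes, colour gives the correlation, white lines part immediate early from heat shock genes, values under 0 are drawn as 0). A block of *Fos*, *Fosb*, *Jun*, *Junb* and *Jund* with *Egr1*, *Ier2*, *Btg2*, *Zfp36* and *Dusp1* is brightest, and *Hspa1a* and *Hspa1b* extend it into the chaperones.

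Other genes with the same pattern over ECs were sought among genes found in at least 10% of the ECs of every mouse. The closest to the immediate early sum were *Klf2* (0.539) and *Klf4* (0.427), both flow-responsive factors, followed by *Tpt1* (0.390), *H3f3b* (0.358), *Eif1* (0.342), *Ccn1* (0.330), *Rhob* (0.329), *Rps23* (0.326), *Actb* (0.317) and *Ubb* (0.315). The lowest were *Gm42418* (−0.440), *Lars2* (−0.399) and the transporter gene *Slco1a4* (−0.330). The heat shock sum had *Tpt1* (0.382), *Tmsb4x* (0.351), *Rpl41* (0.339), *Ubb* (0.339), *Rpl27a* (0.335), *Rps23* (0.331), *H3f3b* (0.325), *Rps24* (0.323) and *Klf2* (0.321) among the closest, several of them ribosomal protein genes. The median over all other genes was 0.001 and −0.001.

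The level also moved with the UMIs of a cell. The Spearman correlation of the immediate early share with UMIs per cell was 0.392, 0.461, 0.345 and 0.268 in the ECs of WT1, WT2, KO1 and KO2, and after reduction to 2000 UMIs 0.403, 0.405, 0.310 and 0.251. For heat shock genes the mean was 0.371 and after reduction 0.283. With the mitochondrial share the immediate early share correlated at −0.016 on average after reduction. From the lowest to the highest quartile of UMIs per cell the immediate early sum, after reduction, went from 7805 to 15814 and from 7810 to 14796 in the WT mice and from 5871 to 10249 and from 7035 to 11098 in the KO mice. After reduction both KO mice lay below both WT mice in each quartile. Without it, KO2 (6783) was above WT2 (6621) in the lowest quartile, and the genotypes did not overlap in the others. Within single zones, without reduction, the correlation with UMIs per cell was 0.377, 0.429, 0.351 and 0.278 in capillary-like, 0.377, 0.377, 0.493 and 0.252 in venous-like and 0.070, 0.163, 0.256 and 0.042 in arterial-like ECs. In each mouse it was lowest in arterial-like ECs among these zones.

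**Figure D5:**
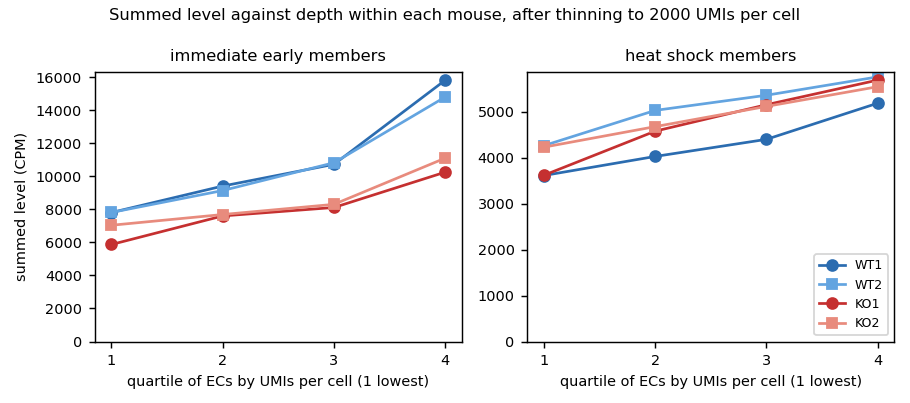
Summed level in CPM (vertical axis, from 0) by quartile of ECs in UMIs per cell (horizontal axis, 1 is the lowest) for each mouse, after reduction to 2000 UMIs per cell. Immediate early sums (left) lay at 5871 to 7810 in the lowest and 10249 to 15814 in the highest quartile, with both KO mice below both WT mice in each, and heat shock sums (right) at 3614 to 4265 and 5188 to 5761, with overlapping genotypes.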

How the data were processed

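The authors aligned the reads to GRCm38 (mm10) and counted UMIs with Cell Ranger (6.1.2 per the labels), and deposited 1 matrix of whole UMI counts (genes by barcodes) for each mouse, with nothing pooled. Barcodes with over 500 genes and under 10% mitochondrial UMIs were kept and clustered with Seurat 5.3.0 (2000 variable genes without stress genes, 50 components, resolution 0.2 for all cells and 0.4 for ECs). A group was named only with at least 3 listed markers, each in at least 25% of its cells. Scrublet called 18 cells, too few to have worked, so the cells with the top 5% of scores were left out as an alternative. UMI counts were summed per mouse and group (at least 10 cells) and tested with edgeR 4.0.16 (default filter, TMM, Benjamini-Hochberg over all genes tested) in R 4.3.3, checked with DESeq2 1.42.0, and the scripts were tested on simulated data. The study's own test per cell was not used, since cells of a mouse are not replicates. The 36 genes and all lists were chosen with earlier results of these data known. Values were given for called genes and for the 2 most abundant genes of each role group in ECs. Of genes outside the 36, the 10 closest in ECs to each sum and the called genes of related lists were named, at most 5 a list, except for 1 gene that is not reported here. Other genes named were chosen after their values were seen.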

Additional observations from a re-analysis of the deposited data

Results flagged for a closer look

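The following genes were marked because their KO against WT difference differed between microglia-like cells and ECs, by the genotype by cell type term of edgeR at an adjusted p under 0.05. Values are the log2 fold change in microglia-like cells minus that in ECs, with 2 mice per genotype. The ECs included the angiogenic-like cluster, and its part in these differences was not tested. Among AP-1 factors, *Junb* was at 1.092, *Fos* at 1.046, *Fosb* at 0.9639, *Atf3* at 0.8046 and *Jund* at 0.6046. Of other induced factors, *Egr1* was at 0.8915 and *Cebpb* at 0.8243. The immediate early response genes were at 1.482 (*Ier3*), 0.9684 (*Ier2*), 0.6635 (*Btg2*) and 0.5696 (*Ier5*). Feedback and survival genes were at 1.127 (*Gadd45g*), 0.9291 (*Zfp36*), 0.7304 (*Ppp1r15a*), 0.6068 (*Nfkbia*) and 0.6044 (*Dusp1*), and chaperones at 0.9776 (*Hspa1a*), 0.8804 (*Hspa1b*) and 0.853 (*Dnajb1*). DESeq2 called 11 of the 36 genes. *Dusp1* and *Jund* kept their call in 1 of 7 alternatives, and *Btg2*, *Ier5* and *Nfkbia* in 2 of 7. The other flagged genes kept theirs in at least 4 of 7. Choroid plexus markers were higher in WT than in KO in both cell types (1286 and 931 against 96.2 and 398 CPM in microglia-like cells), and neutrophil markers in microglia-like cells were at 144, 141, 532 and 684 (WT1, WT2, KO1, KO2). Their part in these differences was not tested.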

How the results depend on the processing

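Counts of the 36 genes called depended on the test and the filter. Without a filter on low counts they were 19 in all ECs, 16 outside the angiogenic-like cluster, 7 in arterial-like, 16 in capillary-like and 2 in venous-like ECs and 1 in microglia-like cells, and with DESeq2 15, 13 and 4 in all ECs, outside the angiogenic-like cluster and in venous-like ECs, and 11 for the difference between cell types. Over all genes, edgeR called 1759, 794, 217, 717, 290 and 210 without the filter, against 808, 176, 103, 312, 67 and 29 with it. DESeq2 called 983, 354 and 108 over all genes in all ECs, outside the angiogenic-like cluster and in venous-like ECs. Below 5% mitochondrial UMIs 2 (arterial-like), 5 (capillary-like), 0 (venous-like) and 3 (pericyte-like) were called. Without the top 5% of doublet scores they were 5 outside the angiogenic-like cluster, 0 in venous-like and 4 in pericyte-like cells, after reduction to 2000 UMIs 8, 1 (arterial-like), 0 (venous-like) and 3 (pericyte-like), and with stress genes in the clustering 1 (arterial-like) and 0 (venous-like). Without the capillary-like cluster low in these genes, an alternative chosen after seeing the data, 5 were called in capillary-like ECs. Between genotypes, a fit without 1 mouse had a single mouse in a genotype, and the number called over all genes changed too. Leaving out a mouse gave 7 to 11 in all ECs, 2 to 14 outside the angiogenic-like cluster, 0 to 3 in arterial-like, 5 to 17 in capillary-like, 0 to 5 in venous-like ECs, 0 to 4 in microglia-like, 1 to 5 in pericyte-like and 0 to 1 in smooth muscle-like cells, 8 to 18 for the difference between cell types and 19 to 21 between zones. With the replicate block 11, 7 and 14 were called in all ECs, outside the angiogenic-like cluster and in capillary-like ECs; the labels do not say that a number marks a shared experiment, deviations of same-numbered mice correlated at −0.176 to 0.165 (Pearson) over 9 cell groups, and the numbers were not taken as a pairing. *Cebpb* in venous-like ECs turned to 0.0047 after reduction, and *Fos* between zones to −0.042 with stress genes in the clustering. The cause was not tested. The 9 genes called in all ECs were also called with DESeq2, other size factors, no filter and the replicate block. They were called too with each change of cells or clustering made within that comparison. Outside the angiogenic-like cluster, a comparison of its own, edgeR called only *Ier3*, *Gadd45g* and *Cebpb* of them.

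Reduction to 2000 UMIs moved mean sums to 4767 (heat shock, all ECs), 9659 and 4603 (immediate early and heat shock outside the angiogenic-like cluster), 8582 and 4417 (capillary-like), 16301 and 4898 (venous-like), 5299 (heat shock, angiogenic-like), 12757 (immediate early, fenestrated) and 4796 (heat shock, pericyte-like), and clustering with stress genes to 14800 and 5972 (arterial-like). Mean correlations moved to 0.162, 0.060 and 0.085 by Spearman and 0.162, 0.059 and 0.084 by Pearson, and that of the heat shock share with UMIs to 0.283. Of 728 values of single genes under the alternatives, 576 kept their call, 150 lost it and 2 reversed.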

Other observations

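Choroid plexus epithelium-like cells, which make cerebrospinal fluid, had an immediate early sum of 3661 CPM in WT1 (12 cells), 3415 in WT2 (32 cells) and 19903 in KO2 (176 cells), with 8 cells in KO1 and no value there. Their heat shock sums were 5080, 5103 and 6266. These groups were too uneven for a comparison of genotypes.

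*Ccn2* was also higher in KO outside the angiogenic-like cluster (log2 fold change 1.79), in arterial-like (1.19), capillary-like (1.69) and venous-like ECs (2.61) and in pericyte-like cells (2.72), all by edgeR at an adjusted p under 0.05 and with the same 4 mice. *Cryab*, a small chaperone, was higher outside the angiogenic-like cluster (1.63) and in capillary-like ECs (2.38). In pericyte-like cells *Maff* (1.51), *Cdkn1a* (0.74), *Plk2* (0.87), *Ccl2* (2.77) and the disulfide isomerase gene *Pdia6* (0.84) were higher and *Errfi1*, a feedback inhibitor of EGF receptors, was lower (−1.18).
In microglia-like cells *Ccn2* was at 0 and 1.35 CPM in WT and 39.5 and 20.8 in KO and passed the test too. Endothelial markers there summed to 1804 and 2353 CPM in WT and 887 and 1429 in KO. Since *Ccn2* was raised in KO ECs, its values in microglia-like and pericyte-like cells can hold endothelial RNA. That part was not tested. *Ier5l* was lower in arterial-like (−0.64) and capillary-like ECs (−0.47), and *Egr3* in capillary-like ECs (−0.60).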
